A study of Homo sapiens with 4 samples.

Results

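The SLC25 family holds the carrier proteins that move metabolites across the inner membrane of mitochondria. Its members were taken as the protein-coding genes whose symbol starts with SLC25A, together with UCP2 and UCP3, the uncoupling proteins, after transcript counts had been summed to genes by Ensembl ID. This gave 50 genes of the 58560 genes with a matched transcript, and of the 19894 protein-coding ones among them. UCP1, MTCH1 and MTCH2, which belong to the same protein family under other names, were outside this rule.

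RNA was sequenced from A549, an established human lung adenocarcinoma line of epithelial origin, in 4 libraries. The glutamine-deprived group, QD, had 2 libraries of A549 cells washed with PBS and kept in DMEM without glutamine but with fetal bovine serum, for 24 h in replicate 1 and 25 h in replicate 2 by their labels, whereas the protocol gives 24 h. The control group, ctrl, had 2 libraries of A549 cells in complete medium, and its labels name no treatment or wash. No genotype or allele differed between the groups by the labels, and both groups came from the same line. Nothing in the labels says that libraries 1 and 2 of a group came from separate cultures, so the p-values measure the spread between these libraries, which may be technical.

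SLC25 carriers share a fold of membrane helices built from repeated modules, and most exchange one solute for another. They link the matrix with the cytosol: glutamate, aspartate, citrate and malate carriers join the citric acid cycle to amino acid and lipid synthesis, ADP/ATP and phosphate carriers serve ATP synthesis, and others bring in vitamins, cofactors, glutathione and iron. The carriers are encoded in the nucleus and reach the inner membrane through the TOM and TIM22 complexes. Glutamine feeds the mitochondrial glutamate pool on which several of these carriers act.

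The sequences that go with the results are those of SLC25A25, the member with the largest increase, of SLC25A33 and SLC25A36, which were also higher and hold the same motif near their starts, and of SLC25A10, whose transcripts differed in share. The cyclic AMP response element TGACGTCA, which reads the same on both strands, was searched in the 250 bases before each RefSeq start, with the E-box CACGTG, also its own reverse complement, and the composite C/EBP-ATF element TGATGNAA, searched on both strands. A match was counted for each motif even where motifs share letters. These motifs were picked after the results were known. TGACGTCA stood in 578 of 35116 windows of all genes (1.65%) and in 3 of the 54 windows of the 42 members that had one, those of SLC25A25, SLC25A33 and SLC25A36. CACGTG stood in 6.34% of all windows and in 8 of the 54 member windows, which belonged to 8 members. Of these, 4 (SLC25A26, SLC25A33, SLC25A36 and SLC25A38) were higher in QD and the other 4 were not called or not tested. Of all 46 tested members 16 were higher, as were 25.2% of all tested genes and 34.3% of the protein-coding ones. Whether a motif goes with a direction was not tested. TGATGNAA stood in 3.14% of all windows and in that of SLC25A11 alone among the members. Each match is a description of the letters and not a shown binding site. In the runs below, which are from RefSeq on GRCh38.p14, plus strand, capitals mark TGACGTCA and CACGTG. For SLC25A25 the run is chr9:128098296-128098325, around a motif that lies before the RefSeq start and within the first exon that GENCODE 29 gives the transcript SLC25A25-201. For SLC25A33 it is chr1:9539215-9539464, and for SLC25A36 chr3:140941586-140941829, both upstream of every GENCODE 29 exon of their gene.
SLC25A25: ggagggagcggTGACGTCAgccctgatctt
SLC25A33: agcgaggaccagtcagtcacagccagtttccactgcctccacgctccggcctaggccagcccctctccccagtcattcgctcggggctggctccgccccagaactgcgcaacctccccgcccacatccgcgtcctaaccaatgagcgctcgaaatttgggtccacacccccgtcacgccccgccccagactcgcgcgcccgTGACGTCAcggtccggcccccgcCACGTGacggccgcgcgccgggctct
SLC25A36: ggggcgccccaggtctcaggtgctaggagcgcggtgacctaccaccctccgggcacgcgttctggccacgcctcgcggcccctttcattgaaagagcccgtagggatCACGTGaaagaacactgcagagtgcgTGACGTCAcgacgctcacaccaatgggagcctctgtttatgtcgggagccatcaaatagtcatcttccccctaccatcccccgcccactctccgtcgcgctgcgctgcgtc

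The next runs are coding sequence of GENCODE 29 on GRCh38, plus strand. SLC25A25-203 and SLC25A25-201 start 30.1 kb apart and have different first exons, so their proteins begin differently. The coding part of the first exon has 53 codons in SLC25A25-201 (chr9:128098567-128098725) and 87 codons in SLC25A25-203 (chr9:128068320-128068580), and capitals mark the start codon. SLC25A10-201 has an exon at chr17:81717757-81717861 whose first 27 bases, in capitals, are absent from SLC25A10-202, a difference of 9 codons that keeps the reading frame.
SLC25A25-201: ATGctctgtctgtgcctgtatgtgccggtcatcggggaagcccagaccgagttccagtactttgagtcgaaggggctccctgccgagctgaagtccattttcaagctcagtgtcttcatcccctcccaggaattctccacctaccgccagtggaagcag
SLC25A25-203: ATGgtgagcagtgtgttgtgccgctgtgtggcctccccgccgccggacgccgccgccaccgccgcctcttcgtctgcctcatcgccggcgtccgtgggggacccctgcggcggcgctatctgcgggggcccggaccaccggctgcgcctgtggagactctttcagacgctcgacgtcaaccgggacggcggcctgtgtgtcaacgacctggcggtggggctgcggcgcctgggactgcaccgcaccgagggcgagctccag
SLC25A10-201: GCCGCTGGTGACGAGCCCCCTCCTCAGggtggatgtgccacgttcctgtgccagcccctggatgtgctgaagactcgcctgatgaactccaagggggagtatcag

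The comparison asked how carrier expression in A549 cells differed after a day without glutamine. Carriers moved in both directions in QD. The largest increases were those of SLC25A25 and SLC25A24, which carry ATP-Mg, the glycine carrier SLC25A38 and the folate carrier SLC25A32. The citrate carrier SLC25A1, the dicarboxylate carrier SLC25A10, SLC25A29, a carrier of basic amino acids, and UCP2 were lower. The phosphate carrier and the 2-oxoglutarate/malate carrier, both abundant, were not called. Of the 46 members that passed the filter on low counts, 16 were higher and 11 were lower at an edgeR Benjamini-Hochberg adjusted p under 0.05, and 19 were not called. That is 58.7% of the tested members, against 49.6% of all 24527 tested genes and 64.1% of the 15411 tested protein-coding genes, so the share of members called was near that of other protein-coding genes. By direction, 25.2% of all tested genes were higher and 24.4% lower, and of the protein-coding ones 34.3% and 29.8%. A change of at least 2-fold was called in 4 members upward and 5 downward, where 12.4% of all tested genes rose and 15.3% fell that far, and 15.1% and 16.6% of the protein-coding ones. The median log2 fold change of QD over ctrl was 0.03 over the tested members, against -0.06 over all tested genes and 0.01 over the protein-coding ones. These calls are relative to TMM scaling: with library size only, under which the typical gene stood at a log2 fold change of -0.40, 9 members were higher and 21 lower.

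Library totals were 123414592 and 120425759 counts in QD and 101496318 and 101982373 counts in ctrl. Levels below are TMM-scaled counts-per-million values (CPM) for one gene across libraries, whereas transcripts-per-million values (TPM), which are divided by length and were not TMM-scaled, are used where genes are compared with each other. The epithelial markers KRT8, KRT18, KRT19, EPCAM and CDH1 were detected in every library and summed to 1730 to 2019 CPM in QD and 7570 to 7681 CPM in ctrl, and all 5 were lower in QD. Their part in the carrier results was not tested. Markers of other cell types were sparse: fibroblast markers summed to 0.766 to 1.54 CPM in QD and 1.34 to 1.89 CPM in ctrl, and endothelial markers to 0.125 to 0.166 CPM in QD and 0.735 to 0.910 CPM in ctrl. CD3E, DCN, COL1A2 and PECAM1 had no count in QD. Blood markers summed to 0.259 and 0.350 CPM in QD 1 and QD 2, against 13.4 CPM in ctrl 1 and 0.336 CPM in ctrl 2. In bulk RNA, fewer cells that express a gene and less of its RNA per cell cannot be told apart.

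**Figure D1:**
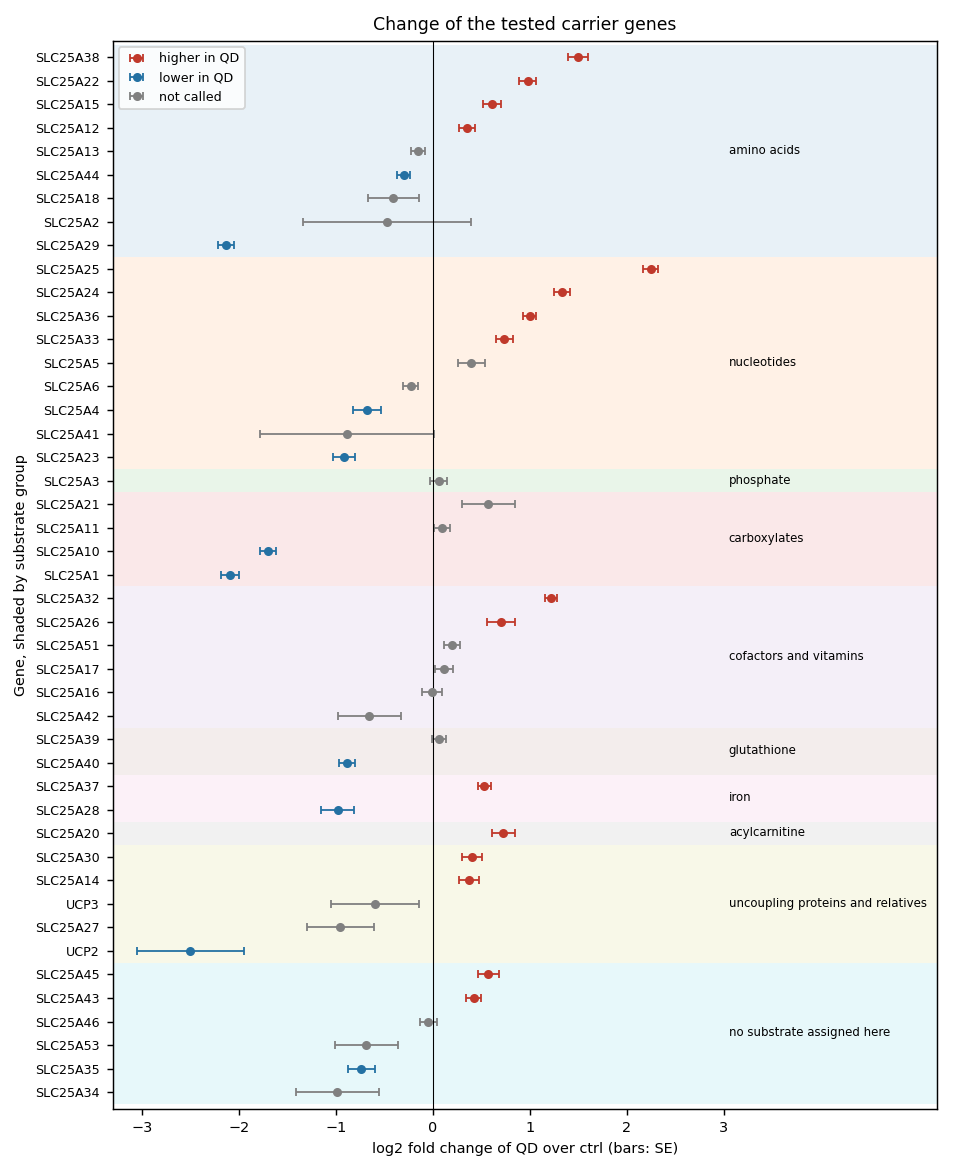
Change of the tested carrier genes reported here, as log2 fold change of QD over ctrl on the horizontal axis, with genes down the page shaded by substrate group. Points are edgeR estimates from 2 QD and 2 ctrl libraries, bars are SEs, and colour gives the call at an adjusted p under 0.05: SLC25A25 is farthest right at 2.24 and UCP2 farthest left at -2.50, with the widest bar of the called genes.

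Among the 9 amino acid carriers, 4 were higher in QD, 2 were lower and 3 were not called, and the median log2 fold change was -0.15. The share called was 66.7%, near the 64.1% of tested protein-coding genes (49.6% of all tested genes). SLC25A38, which imports glycine for haem synthesis (ENSG00000144659, chr3:39383324-39397351), had 149 and 126.6 CPM in the QD libraries, against 46.7 and 51.0 CPM in the ctrl libraries. Both QD values lay above both ctrl values, and the log2 fold change was 1.497 ± 0.103 (SE, edgeR adjusted p = 9.62e-05). It was also the carrier of this group with the highest mean level over all libraries, at 77.5 TPM. SLC25A29, a carrier of basic amino acids (ENSG00000197119, chr14:100291111-100306547), had 10.7 and 11.8 CPM in QD and 49.1 and 49.6 CPM in ctrl. The replicates were close together and the groups far apart, with a log2 fold change of -2.13 ± 0.09 (edgeR adjusted p = 2.04e-05).

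Of the carriers that take glutamate, SLC25A22 and SLC25A12 were higher and the others were not called. SLC25A22, glutamate carrier 1, had 31.1 and 29.8 CPM in QD and 15.95 and 14.93 CPM in ctrl, with no overlap (log2 fold change 0.98 ± 0.09, edgeR adjusted p = 0.00025). SLC25A18, glutamate carrier 2, stayed between 1.10 and 1.81 CPM over the 4 libraries and was not called. Of the aspartate-glutamate carriers of the malate-aspartate shuttle, SLC25A12 (aralar) was higher, at 43.9 and 40.8 CPM in QD against 31.6 and 34.8 CPM in ctrl (log2 fold change 0.35 ± 0.08, edgeR adjusted p = 0.0162). Its sister SLC25A13 (citrin) was the member of this group nearest to no change. SLC25A13 had 33.45 and 34.08 CPM in QD and 36.9 and 38.1 CPM in ctrl, a log2 fold change of -0.15 ± 0.07 with a 95% interval from -0.325 to 0.020 (edgeR adjusted p = 0.124). It was called lower with upper-quartile factors (-0.26, edgeR adjusted p = 0.0258) and with library size only (-0.49, edgeR adjusted p = 0.00263). A minimum of 50 counts in 2 libraries also made it lower (-0.20, edgeR adjusted p = 0.0394), and the other settings did not call it.

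The remaining amino acid carriers had smaller changes or were scarce. SLC25A15, which exchanges ornithine in the urea cycle, was higher at a log2 fold change of 0.61 ± 0.09, and SLC25A44, which imports branched-chain amino acids, was lower at -0.30 ± 0.07 but turned to 0.12 (edgeR adjusted p = 0.819) over protein-coding transcripts only. SLC25A2, the second ornithine carrier, had under 0.33 CPM in every library and was not called. The call of SLC25A12 ended without QD 1 (log2 fold change 0.30, edgeR adjusted p = 0.0501) and without ctrl 1 (0.27, adjusted p = 0.112). With library size only, the calls of SLC25A12 (0.01, edgeR adjusted p = 0.893) and SLC25A15 (0.27, adjusted p = 0.0724) also ended. That of SLC25A44 ended without ctrl 1, ctrl 2 or QD 2, with adjusted p-values of 0.0558 to 0.069 in edgeR.

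The largest increase of a single member was that of the nucleotide carrier SLC25A25. Of the 9 tested, 4 were higher in QD, 2 were lower and 3 were not called, with a median log2 fold change of 0.40. The share called was 66.7%, near the 64.1% of tested protein-coding genes (49.6% of all tested genes). SLC25A25, a calcium-regulated ATP-Mg/phosphate carrier (ENSG00000148339, chr9:128068201-128109245), had 56.7 and 54.4 CPM in QD, against 11.4 and 12.1 CPM in ctrl. The groups were well apart, and the log2 fold change was 2.24 ± 0.08 (edgeR adjusted p = 1.56e-05). Its paralog SLC25A24 (ENSG00000085491, chr1:108134036-108200849) had 221.5 and 214 CPM in QD and 81.3 and 92.0 CPM in ctrl, again with no overlap (log2 fold change 1.33 ± 0.09, edgeR adjusted p = 7.7e-05). The third calcium-regulated paralog, SLC25A23, was lower, with 7.75 and 8.12 CPM in QD and 14.99 and 14.92 CPM in ctrl (log2 fold change -0.91 ± 0.11, edgeR adjusted p = 0.000971). The calcium-independent SLC25A41 was at or below 0.219 CPM in all libraries.

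Both pyrimidine nucleotide carriers, which serve mitochondrial DNA and RNA synthesis, were higher. SLC25A36 had 124 and 128 CPM in QD and 62.5 and 63.6 CPM in ctrl (log2 fold change 0.998 ± 0.066, edgeR adjusted p = 8.68e-05), and its estimate was just under the 2-fold mark. SLC25A33 had 29.4 and 27.6 CPM in QD and 17.6 and 16.7 CPM in ctrl (log2 fold change 0.73 ± 0.09, edgeR adjusted p = 0.000844). The groups did not overlap for either gene. Their values are given in full because their promoters are shown, a choice made after their values were seen.

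The ADP/ATP carriers, which exchange cytosolic ADP for matrix ATP, included 1 called member among the 3 tested. SLC25A5 (ANT2), the most abundant nucleotide carrier with a mean of 612.6 TPM, had 529.6 and 464 CPM in QD and 329.7 and 424 CPM in ctrl. Its QD values were above its ctrl values, but the ctrl libraries were themselves far apart and the gene was not called (log2 fold change 0.40 ± 0.14, edgeR adjusted p = 0.057). SLC25A6 (ANT3), the member nearest to no change here, had 108.7 and 98.15 CPM in QD and 120.4 and 122.1 CPM in ctrl (log2 fold change -0.23 ± 0.08, edgeR adjusted p = 0.0504). SLC25A4 (ANT1), the form of heart and muscle, was lower, at 8.07 and 7.78 CPM in QD against 11.35 and 13.95 CPM in ctrl (log2 fold change -0.67 ± 0.15, edgeR adjusted p = 0.0102). That call ended without ctrl 2 (-0.53, edgeR adjusted p = 0.0536). SLC25A31 (ANT4), a testis form, had no count in either QD library and 0.0700 and 0 CPM in ctrl, and it was not tested. In TPM, SLC25A5 made up 88.2% and 87.7% of the ADP/ATP carrier total in QD and 80.8% and 84.1% in ctrl. Near-identical processed pseudogenes of SLC25A5 and SLC25A6 exist, so the division of their reads is uncertain. For the shares, 2 libraries against 2 allow no exact two-sided permutation p below 0.333.

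**Figure D2:**
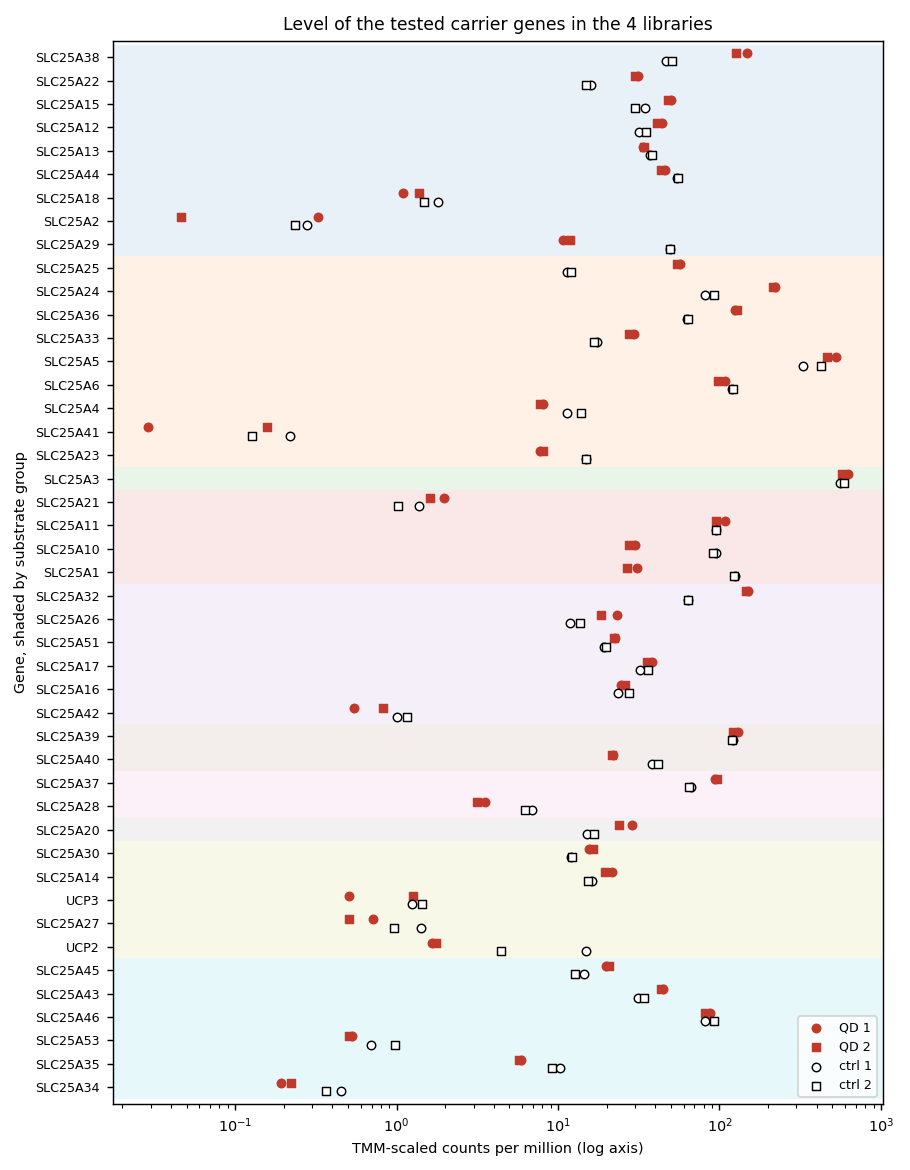
TMM-scaled CPM of the tested carrier genes reported here in the 4 libraries, on a log axis, with genes down the page in the same order and shading by substrate group. Filled red marks are QD 1 and QD 2 and open marks are ctrl 1 and ctrl 2: for SLC25A25 and SLC25A29 the groups stand far apart, whereas for UCP2 ctrl 1 (14.9 CPM) stands apart from ctrl 2 (4.44 CPM).

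SLC25A3, which carries phosphate, and also copper, into the matrix (ENSG00000075415, chr12:98593591-98606379), was the most abundant member, at a mean of 720.2 TPM. It had 626 and 577 CPM in QD and 559 and 594 CPM in ctrl. The groups overlapped, and the log2 fold change of 0.06 ± 0.09 had a 95% interval from -0.15 to 0.27 (edgeR adjusted p = 0.596).

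Of the 4 carboxylate carriers, 2 were lower in QD, none was higher and 2 were not called. Of all tested genes 49.6% were called, and of the protein-coding ones 64.1%. Those called lower were 24.4% of all tested genes and 29.8% of the protein-coding ones. The median log2 fold change of the 4 carriers was -0.80, against -0.06 over all tested genes and 0.01 over the protein-coding ones. No set test was run. SLC25A1, the citrate carrier that exports citrate for fatty acid and sterol synthesis (ENSG00000100075, chr22:19175575-19178830), had 31.0 and 26.9 CPM in QD and 124.4 and 122.3 CPM in ctrl. Each QD library lay far below both ctrl libraries (log2 fold change -2.09 ± 0.09, edgeR adjusted p = 2.41e-05). SLC25A10, the dicarboxylate carrier that exchanges malate and succinate for phosphate (ENSG00000183048, chr17:81712236-81721016), had 29.97 and 27.43 CPM in QD and 95.03 and 91.29 CPM in ctrl. Its groups were as clearly apart (log2 fold change -1.70 ± 0.08, edgeR adjusted p = 2.78e-05).

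SLC25A11, the 2-oxoglutarate/malate carrier of the malate-aspartate shuttle, was the most abundant carboxylate carrier by mean TPM (94.0) and was not called. It had 107.7 and 95.6 CPM in QD and 95.3 and 95.1 CPM in ctrl. The log2 fold change was 0.09 ± 0.08, with a 95% interval from -0.10 to 0.29 (edgeR adjusted p = 0.379). SLC25A21, the carrier of oxoadipate and other oxodicarboxylates, was low, at 1.95 and 1.60 CPM in QD and 1.37 and 1.02 CPM in ctrl, and was not called (edgeR adjusted p = 0.135). The directions of SLC25A3 and SLC25A11 turned with library size only, to log2 fold changes of -0.28 and -0.24, and that of SLC25A3 also over protein-coding transcripts only, to -0.17 (edgeR adjusted p = 0.0971).

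Among the 8 carriers of cofactors and vitamins, 7 were tested, of which 2 were higher, 1 was lower and 4 were not called. The share called was 42.9%, against 49.6% of all tested genes and 64.1% of the protein-coding ones. SLC25A32, linked to mitochondrial folate and FAD transport (ENSG00000164933, chr8:103398635-103415189), had 150.2 and 146.5 CPM in QD and 63.8 and 63.9 CPM in ctrl. Replicates were nearly equal in both groups (log2 fold change 1.22 ± 0.07, edgeR adjusted p = 4.33e-05), and at 65.9 TPM it was the most abundant of this group. SLC25A26, which imports S-adenosylmethionine, was higher, at 23.2 and 18.6 CPM in QD against 11.9 and 13.7 CPM in ctrl (log2 fold change 0.71 ± 0.15, edgeR adjusted p = 0.00862).

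SLC25A16, linked to coenzyme A, was the member of this group nearest to no change, at 24.7 and 26.0 CPM in QD and 23.5 and 27.5 CPM in ctrl. Its groups overlapped, and the log2 fold change of -0.01 ± 0.10 had a 95% interval from -0.26 to 0.24 (edgeR adjusted p = 0.95). With library size only, SLC25A16 was called lower (-0.34, edgeR adjusted p = 0.0312). The NAD carrier SLC25A51 had a log2 fold change of 0.20 ± 0.08, the peroxisomal carrier SLC25A17 of 0.11 ± 0.09, and the coenzyme A carrier SLC25A42, at or under 1.16 CPM, of -0.66 ± 0.32. None of these passed the test. SLC25A52, a close copy of SLC25A51, had no count in any library, but reads of the pair could be divided wrongly.

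Of the paired carriers, 1 of those for glutathione was lower, and those for iron were called in opposite directions. Of all tested genes 49.6% were called, and of the protein-coding ones 64.1%. SLC25A39, which brings glutathione into mitochondria, was the third most abundant member at 170.0 TPM. It had 130.2 and 121.6 CPM in QD and 121.6 and 119.3 CPM in ctrl, so that the groups met, and was not called (log2 fold change 0.06 ± 0.07, 95% interval -0.11 to 0.24, edgeR adjusted p = 0.499). Its direction turned to -0.27 with library size only and to -0.59 (edgeR adjusted p = 0.00354) when only protein-coding transcripts were summed. Protein-coding transcripts held 46.1% and 43.5% of the SLC25A39 counts in QD and 64.7% and 71.1% in ctrl, with most of the rest in retained-intron transcripts. Its paralog SLC25A40 was lower, at 21.9 and 21.5 CPM in QD against 38.1 and 41.8 CPM in ctrl (log2 fold change -0.88 ± 0.08, edgeR adjusted p = 0.000303).

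Of the mitoferrins, which import iron, SLC25A37 (mitoferrin 1) had 93.55 and 97.24 CPM in QD and 66.9 and 65.1 CPM in ctrl. It was higher in QD without overlap (log2 fold change 0.53 ± 0.07, edgeR adjusted p = 0.00111), but not with library size only (0.20, adjusted p = 0.0941) or over protein-coding transcripts only (0.18, adjusted p = 0.134). SLC25A28 (mitoferrin 2) was lower, at 3.54 and 3.13 CPM in QD against 6.91 and 6.28 CPM in ctrl (log2 fold change -0.98 ± 0.17, edgeR adjusted p = 0.00407). SLC25A20, the single carnitine/acylcarnitine carrier, which serves fatty acid oxidation, was higher, at 28.8 and 24.0 CPM in QD against 15.1 and 16.8 CPM in ctrl (log2 fold change 0.73 ± 0.12, edgeR adjusted p = 0.00349).

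The uncoupling proteins and their relatives held the largest decrease. UCP2, named for the proton leak of its relative UCP1 and also reported to export carboxylates (ENSG00000175567, chr11:73974667-73983307), had 1.67 and 1.76 CPM in QD and 14.9 and 4.44 CPM in ctrl. The groups did not overlap, but ctrl 1 was far above ctrl 2, and the log2 fold change of -2.50 ± 0.55 had a 95% interval from -3.85 to -1.15 (edgeR adjusted p = 0.0112). Without ctrl 1 it was -1.38 (edgeR adjusted p = 0.00861), and without ctrl 2 -3.14. The blood genes HBB and LYZ stood apart in the same library, with 11.6 and 1.29 CPM in ctrl 1 and at most 0.227 CPM in the other three, while PTPRC and CD3E were at or under 0.385 CPM everywhere. Their part in the UCP2 value of ctrl 1 was not tested.

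SLC25A14 (UCP5) was the most abundant of this group at 26.2 TPM and the nearest to no change. It had 21.5 and 19.5 CPM in QD and 16.2 and 15.4 CPM in ctrl and was higher (log2 fold change 0.37 ± 0.10, edgeR adjusted p = 0.0236). SLC25A30, a relative of it, was higher at 0.40 ± 0.10 (edgeR adjusted p = 0.0201). Both calls ended when 1 library was left out, for SLC25A14 without QD 1, ctrl 1 or ctrl 2 (edgeR adjusted p of 0.0685 to 0.128), and for SLC25A30 without QD 2, ctrl 1 or ctrl 2 (0.0611 to 0.0956). Both also ended with upper-quartile factors (edgeR adjusted p = 0.0629 for SLC25A14 and 0.0657 for SLC25A30) and with library size only (0.81 and 0.675), and that of SLC25A30 with a replicate block (0.0535). UCP3, with 0.508 and 1.26 CPM in QD and 1.24 and 1.43 CPM in ctrl, and SLC25A27 (UCP4), with 0.718 and 0.507 CPM in QD and 1.41 and 0.962 CPM in ctrl, were low and not called. Without QD 2, the call of UCP3 turned to lower (-1.38, edgeR adjusted p = 0.015), and without QD 1, that of SLC25A27 did (-1.22, edgeR adjusted p = 0.0448).

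The remaining 8 members were given no substrate here. SLC25A46, an outer membrane protein tied to mitochondrial shape, was the most abundant at 62.4 TPM and the nearest to no change, at 87.21 and 81.35 CPM in QD and 81.9 and 92.4 CPM in ctrl. Its groups overlapped (log2 fold change -0.05 ± 0.09, 95% interval -0.26 to 0.16, edgeR adjusted p = 0.679). SLC25A45 and SLC25A43 were higher, with log2 fold changes of 0.57 ± 0.11 and 0.42 ± 0.08, and SLC25A35 was lower at -0.74 ± 0.14. The calls of SLC25A45 and SLC25A43 ended with library size only. Over protein-coding transcripts only, SLC25A45 was at 0.97 and was not called (edgeR adjusted p = 0.151). SLC25A34 and SLC25A53 stayed under 1 CPM and were not called. SLC25A48 had no count in QD and 0.0175 and 0.0454 CPM in ctrl, and SLC25A47 had no count in any library. A count of 0 allows up to 0.0276 to 0.0287 CPM in the QD libraries and 0.0263 to 0.0272 CPM in the ctrl libraries (3 counts per library, counting error only).

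Per length, the family was led by few genes. Over all libraries, 41 of the 50 members reached a mean of 1 TPM, 12 reached 50 TPM, and 4 (SLC25A3, SLC25A5, SLC25A39 and SLC25A6) reached 100 TPM. The 50 genes summed to 2435 and 2591 TPM in QD and 2928 and 2781 TPM in ctrl. As TPM were not TMM-scaled, these sums do not give the direction of the family between the groups. For SLC25A3, which overlapped in CPM and was not called, TPM were 623.2 and 648.3 in QD and 827.1 and 782.2 in ctrl. The nucleotide carriers held 37.7% and 37.5% of that sum in QD and 28.8% and 31.8% in ctrl, and the carboxylate carriers 5.76% and 5.65% in QD and 13.5% and 12.3% in ctrl. For both groups of carriers the QD and ctrl shares did not overlap, and no test was run on them. The same held for every other substrate group except iron, so it does not set these carriers apart. The iron carriers held 1.795% and 2.037% in QD and 1.821% and 1.78% in ctrl. All shares are parts of the same sum, so they do not move independently. Within the carboxylate carriers, SLC25A1 had 29.4 and 29.5 TPM in QD and 166.4 and 145.3 TPM in ctrl, and was thus below SLC25A11 in QD (84.8 and 88.4 TPM) and above it in ctrl (108.6 and 94.4 TPM).

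**Figure D3:**
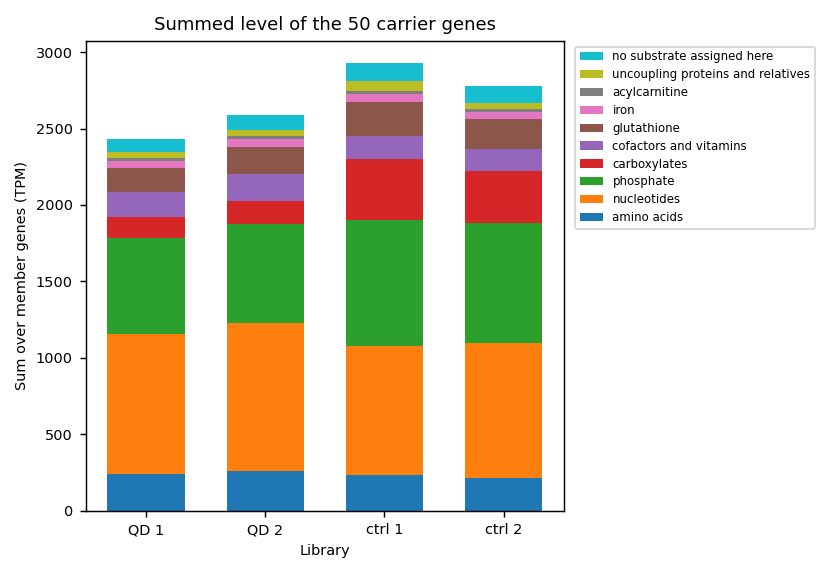
Sum of TPM over the 50 carrier genes in each library, QD 1 and QD 2 left of ctrl 1 and ctrl 2, with bar segments for the substrate groups. TPM were not TMM-scaled, so bar heights do not compare levels between QD and ctrl. Phosphate and nucleotide carriers make up most of every bar, and the carboxylate segment is 140.1 and 146.4 TPM in QD and 396 and 342 TPM in ctrl.

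Transcripts of 3 members differed in share between the groups by at least 15 percentage points. Over the 39 members with at least 100 counts in every library, 91 transcripts held at least 10% of their gene in some library, and 5 of them, in 3 members, had QD shares at least 15 percentage points away from the nearest ctrl share. This limit was chosen after the values were seen, and no transcript was tested. SLC25A3-217, the main transcript of the most abundant member, fell just short of it with a gap of 14.9 points. It held 60.97% and 64.93% of its gene's counts in QD and 79.87% and 81.99% in ctrl. SLC25A25-201, the form with the downstream first exon, held 32.03% and 28.77% of its gene's counts in QD and 9.39% and 5.87% in ctrl. It had 18.2 and 15.7 CPM in QD and 1.07 and 0.708 CPM in ctrl, while the upstream form SLC25A25-203 had 38.2 and 38.5 CPM in QD and 10.02 and 11.03 CPM in ctrl. Both forms were thus at higher levels in QD, and the downstream one took a larger share. SLC25A25-AS1, which shares 665 exon bases with SLC25A25 on the other strand and none with either first exon, had 6.88 and 8.11 CPM in QD and 5.96 and 6.28 CPM in ctrl. The labels do not state a stranded kit, so reads over the shared bases could belong to either gene.

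SLC25A10-202, which lacks the 9 codons shown, held 58.4% and 47.0% of the gene's counts in QD and 15.9% and 14.0% in ctrl. In level it had 17.5 and 12.9 CPM in QD and 15.1 and 12.8 CPM in ctrl. SLC25A10-201 had 8.63 and 4.36 CPM in QD and 47.2 and 44.8 CPM in ctrl, so the lower total of SLC25A10 in QD lay in this and other transcripts. For SLC25A26, SLC25A26-201 held 46.3% and 48.2% in QD and 17.8% and 17.9% in ctrl. Estimates for single transcripts were less steady than gene sums: the share of 22 of the 91 transcripts differed by at least 15 points between replicates, as for SLC25A44-204, with 62.8% in ctrl 1 and 13.0% in ctrl 2.

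**Figure D4:**
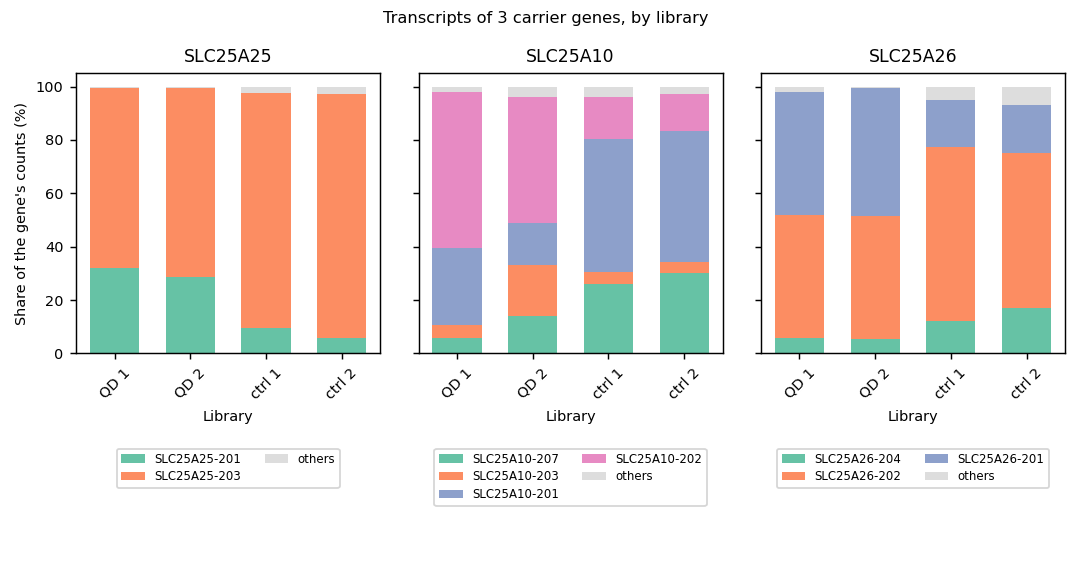
Share of each gene's counts held by its transcripts, in percent, for SLC25A25, SLC25A10 and SLC25A26 in QD 1, QD 2, ctrl 1 and ctrl 2. Transcripts that reach 10% in some library are coloured and the others are grey: SLC25A25-201, SLC25A10-202 and SLC25A26-201 take larger shares in both QD libraries than in both ctrl libraries.

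Proteins that work beside these carriers were read from 4 lists. Of the 12 genes for import of carriers through TOM and TIM22, 10 were higher in QD, none was lower and 2 were not called, where 25.2% of all tested genes and 34.3% of protein-coding ones were higher. TIMM8A, one of the 10, turned to -0.03 with library size only. TOMM20, an import receptor, had 189.1 and 201.7 CPM in QD and 81.8 and 82.0 CPM in ctrl (log2 fold change 1.25 ± 0.07, edgeR adjusted p = 5.02e-05). TOMM70, the receptor that binds carrier precursors, had a log2 fold change of 0.91 ± 0.08 and TIMM22, the insertion channel, of 0.98 ± 0.08. The median log2 fold change of this list was 0.73, against -0.06 over all tested genes and 0.01 over the protein-coding ones, and no set test was run.

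Of 14 other mitochondrial carriers, channels and SLC25 relatives, 3 were higher and 9 were lower, where 34.3% of tested protein-coding genes were higher and 29.8% lower. SFXN5, a sideroflexin, had 7.124 and 8.745 CPM in QD and 34.32 and 32.02 CPM in ctrl (log2 fold change -2.06 ± 0.13, edgeR adjusted p = 6.71e-05). MTCH2, an outer membrane relative of the SLC25 family, was lower at -1.28 ± 0.08, and SFXN1, a serine carrier, at -0.67 ± 0.07. MCU, the calcium uniporter pore and one of the 9, had a log2 fold change of -0.28 and one of 1.18 (edgeR adjusted p = 0.00272) when only protein-coding transcripts were summed. Among the 3 porins, the channels of the outer membrane, VDAC2 was higher (1.06), VDAC3 was lower (-0.36) and VDAC1 was not called (-0.04). Of the 4 malate-aspartate shuttle enzymes, GOT1, the cytosolic aspartate aminotransferase, had 223.7 and 186.8 CPM in QD and 49.2 and 54.8 CPM in ctrl (log2 fold change 1.98 ± 0.11, edgeR adjusted p = 5.17e-05). MDH2 was higher at 0.42 ± 0.07 but not with library size only (0.08, edgeR adjusted p = 0.455), and the other 2 were not called. Those 2 were called lower with upper-quartile factors and with library size only. The calls of VDAC3 (without ctrl 2 or QD 2) and of TIMM8A and MCU (without ctrl 1, ctrl 2 or QD 2) ended when 1 library was left out, with edgeR adjusted p-values of 0.0728 to 0.179. That of VDAC3 also ended with RLE factors (edgeR adjusted p = 0.0708), no filter on low counts (0.115) and a replicate block (0.0822).

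The calls of the carriers were compared over 13 other settings, among them other scalings, filters, tools and each library left out. Of the 27 called members, 18 kept their call in all of them, 9 higher and 9 lower. The 9 higher were SLC25A20, SLC25A22, SLC25A24, SLC25A25, SLC25A26, SLC25A32, SLC25A33, SLC25A36 and SLC25A38. Those lower included SLC25A1, SLC25A10, SLC25A23, SLC25A28, SLC25A29, SLC25A35, SLC25A40 and UCP2. SLC25A35 shares 33.2% of its exon bases with RANGRF on the other strand, and RANGRF had 57.40 and 46.45 CPM in QD and 19.8 and 24.4 CPM in ctrl. SLC25A26 shares 15.5% with LRIG1, SLC25A32 shares 11.1% with DCAF13, and SLC25A25 shares 13.5% with SLC25A25-AS1, also on the other strand, so the values of these 4 genes carry that uncertainty. So do those of other members, among them some that were not called. SLC25A21 shares 15.8% with SLC25A21-AS1 and 13.0% with PAX9, SLC25A5 15.1% with SLC25A5-AS1, and SLC25A11 9.14% with RNF167.

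**Figure D5:**
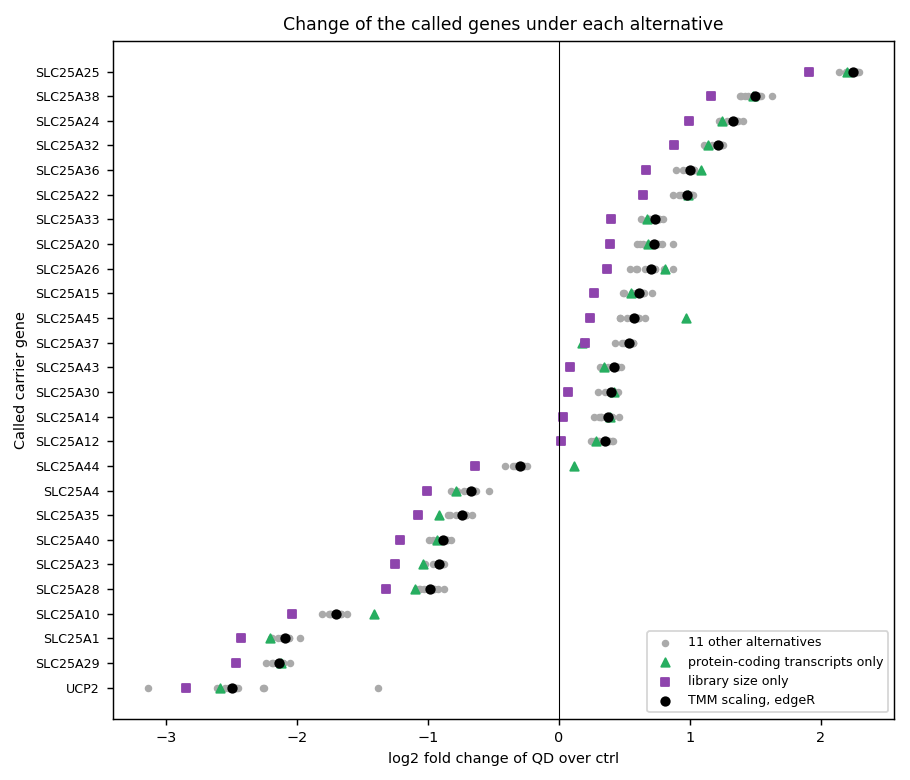
Log2 fold change of QD over ctrl for the called carrier genes reported here, 1 gene per line, with the estimate from TMM scaling and edgeR in black and the 13 other settings around it. Purple squares (library size only) lie left of the black points for every gene shown, and the green triangle (protein-coding transcripts only) of SLC25A44 lies right of 0.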

How the data were processed

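Poly-A RNA of 2 QD and 2 ctrl samples was sequenced. The authors deposited 1 whole-number value per transcript and library, named counts per the file headers. As reads shared by overlapping transcripts appear divided among them, the deposited values were treated as estimated counts, not normalized by the authors. Per the submitters' processing notes, HISAT2 2.0.5, featureCounts 1.5.0-p3, DESeq2 1.20.0 and the build hg38 were used. Neither the program behind the values per transcript nor its gene annotation is given in the sources used here. A deposited table of long non-coding RNAs was not used.

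Of 229420 transcripts, 205306 matched GENCODE 29 by ID and held 98.0% to 98.3% of the counts. They were summed to genes. Low genes were removed with filterByExpr, TMM factors were computed, and each gene was tested with edgeR 4.0.16 (quasi-likelihood, R 4.3.3), two-sided and Benjamini-Hochberg adjusted over all 24527 tested genes, with calls at an adjusted p under 0.05. An SE is the size of the log2 fold change over the square root of F. CPM use TMM-scaled library sizes, and TPM use transcript lengths. The method was tested on simulated data. Replicates differed by more than sampling noise (chi-square per degree of freedom 34.0 in QD and 24.1 in ctrl), so none was treated as deposited more than once, which does not show that they are separate cultures. Intervals cover 95%.

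The members and lists were chosen with earlier results of these data known. Values per library are given for members called with at least a 2-fold change, for the most abundant member by TPM and the member nearest to no change in each substrate group, and for further members where a sister gene is compared or a promoter is shown. Up to 3 genes with the smallest p are named per companion list, with MCU and TIMM8A added for their change of direction. The other settings were DESeq2 1.42.0, limma-voom (limma 3.58.1), a replicate block, protein-coding transcripts only, each library left out, scaling by RLE, upper quartile or library size only, no filter on low counts, and a minimum of 50 counts in 2 libraries. Promoter windows and coding stretches came from RefSeq (GRCh38.p14) and GENCODE 29. Results of 1 carrier gene and 1 marker gene are counted in the totals but not reported here by name.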

Additional observations from a re-analysis of the deposited data

How the results depend on the processing

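Among the 46 tested members, library size only moved the most calls, with 9 members higher and 21 lower. The median log2 fold change over members was -0.309 with library size only and -0.081 with upper-quartile factors, and -0.060 to 0.130 when each library was left out. The settings that put the median of all genes at -0.40 (library size only) and -0.17 (upper-quartile factors) shift every gene alike. With library size only SLC25A11 (-0.24), SLC25A3 (-0.28), SLC25A39 (-0.27) and TIMM8A (-0.025) turned direction, and over protein-coding transcripts only SLC25A39 (-0.59), SLC25A44 (0.12) and MCU (1.18) did. Members that turned without being called in either fit were SLC25A17 (-0.22) and SLC25A51 (-0.14) with library size only and SLC25A3 (-0.17) over protein-coding transcripts only, among others near 0. For the transcript setting the cause was not tested. The replicate numbers did not pair the samples, with a correlation of deviations of -0.02. With a replicate block, 15 members were higher and 11 lower, the call of SLC25A30 being lost (0.40, adjusted p = 0.0535), and 5529 genes of all were higher and 5079 lower. Leaving out each library gave 13 to 16 members higher and 9 to 13 lower. SLC25A5 was called higher with DESeq2 (adjusted p = 0.00582) and limma-voom (adjusted p = 0.0387), and SLC25A6 lower with limma-voom (adjusted p = 0.044). UCP3 had 53 and 137 counts in QD and 142 and 158 in ctrl, and 2 libraries a group limit every call.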
